A study of Homo sapiens with 2 samples.

Results

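The proteasome assembly chaperones are the 9 genes POMP, PSMG1, PSMG2, PSMG3, PSMG4, PSMD5, PSMD9, PSMD10 and PAAF1. They were named from their known role, but were grouped with earlier results of these data known. They were set against a single list of 5683 NRF1 peaks from HCT116 cells, a human colorectal carcinoma line, that had been kept for 16 h in 1 µM MG132, a peptide aldehyde that blocks the proteasome. NRF1 here is the product of NFE2L1 and was precipitated with an antibody against it. The list came from 1 ChIP-seq library of treated cells, an input library of the same cells was not analysed here, and no untreated library was compared. A peak was given to a gene when its centre lay within 20 kb of a transcription start site (TSS) of that gene in the GENCODE annotation on hg19. Under this rule 4 of the 9 genes had a peak and 5 had none.

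The proteasome consists of a 20S core, in which rings of alpha and beta subunits enclose the proteolytic chamber, and a 19S regulatory particle, whose base contains a ring of ATPases. Both parts are built with the help of dedicated chaperones. PSMG1 pairs with PSMG2 and PSMG3 pairs with PSMG4 to guide the alpha ring, and POMP then escorts the beta subunits and the final closure of the core before it is degraded. PSMD5, PSMD9, PSMD10 and PAAF1 each bind ATPases of the 19S base during its assembly and are absent from the finished particle. NRF1 is a CNC-bZIP factor that is stabilised when the proteasome is blocked, binds the antioxidant response element (ARE) as a dimer with a small MAF protein and is known as an activator of the genes for the proteasome subunits. The peak list was therefore used to ask whether binding was also found at the genes whose products build the particle.

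The sequences below are sites in the peaks of PSMD9, PAAF1 and POMP and, for comparison, sites at or near PSMD10 and PSMG1, which had no peak within the limit. They were read from hg19, 5′ to 3′, with capitals marking matches to the ARE consensus, TGAGNNNGC or TGACNNNGC. At POMP no match was found, and the capitals mark instead 1 of the 4 stretches of 9 bases that come closest to the longer form of the element, TGAGTCAGC or TGACTCAGC. Both strands were searched. The PSMD9 line is the plus strand of chr12:122326454-122326617 and holds 3 sites, the middle one on the opposite strand. PAAF1 is the plus strand of chr11:73591695-73591733 and POMP the minus strand of chr13:29233453-29233491. PSMD10 is shown for the site nearest to its TSS, on the plus strand of chrX:107335118-107335156. PSMG1 is shown for the site in the peak next to it, on the plus strand of chr21:40525394-40525432.
PSMD9: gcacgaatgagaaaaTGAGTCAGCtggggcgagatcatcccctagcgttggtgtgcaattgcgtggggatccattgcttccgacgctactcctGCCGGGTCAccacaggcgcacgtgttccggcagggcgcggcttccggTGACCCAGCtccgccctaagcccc
PAAF1: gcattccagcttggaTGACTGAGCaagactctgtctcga
POMP: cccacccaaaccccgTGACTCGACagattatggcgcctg
PSMD10: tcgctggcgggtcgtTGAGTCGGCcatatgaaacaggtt
PSMG1: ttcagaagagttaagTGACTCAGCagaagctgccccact

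Peaks were found at POMP and PSMG3 among the chaperones of the 20S core and at PSMD9 and PAAF1 among those of the 19S base, 2 of 5 and 2 of 4 genes. Each of these genes had exactly 1 peak within 20 kb. The share of 44.4% (95% Wilson interval 18.9 to 73.3%, counting error only) stands beside 18.7% of the 20162 protein-coding genes. All 4 peaks also lay within 2 kb of an annotated TSS of their gene, where 6.03% of protein-coding genes had a peak. Only the canonical TSS was counted in a further comparison, and 3 of the 9 genes then had a peak within 2 kb, beside 3.72% of the 19881 protein-coding genes with a canonical transcript. PAAF1 was the gene lost, because the PAAF1 peak lay 3704 bp from the canonical start. With a score of at least 100 required, POMP and PSMD9 were left, 2 of 9 genes, beside 9.45% of protein-coding genes. As the list rests on 1 library, there is no replicate error for any peak and no test was made.

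**Figure D1:**
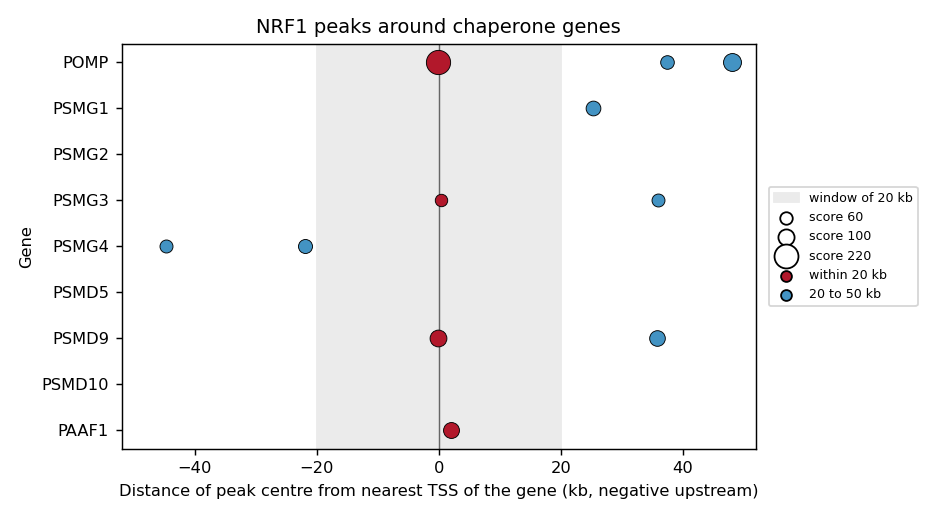
NRF1 peaks around each chaperone gene, with the distance of the peak centre from the nearest TSS of the gene on the x axis (kb, negative upstream), 1 row per gene, and the area of each circle proportional to the peak score. Red circles are the 4 peaks within 20 kb, all close to a TSS, and blue circles are peaks from 20 to 50 kb, the nearest of which belong to PSMG4 and PSMG1.

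POMP (ENSG00000132963.9, chr13:29233202-29253096, plus strand), the chaperone that matures the core, had the highest score of the 9 genes. Its peak lay on chr13:29233027-29233839, with a score of 224.90. The authors' peak caller gives each p-value as its negative log10 multiplied by 10, and the lowest score in the list, 50.00, corresponds to 1e-05. The POMP peak ranked 736 of 5683, above 87.0% of all peaks and above 80.1% of the 1122 peaks within 2 kb of a protein-coding TSS. It was 813 bp wide, wider than 96.3% of peaks, and its centre fell in intron 1 of the canonical transcript, 166 bp downstream of the canonical start and 104 bp upstream of the nearest alternative one. The peak spans the canonical start and also the TSS of a divergent noncoding RNA, ENSG00000289569, annotated 39 bp from it.

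The other gene of the core chaperones with a peak was PSMG3 (ENSG00000157778.9, chr7:1606968-1610641, minus strand), at the opposite end of the list. Its peak on chr7:1610115-1610585 had a score of 59.16, rank 4780, and only 15.9% of peaks scored lower. The peak centre was 682 bp upstream of the canonical start. An alternative PSMG3 transcript begins further upstream, 291 bp before the centre, and the centre falls in exon 1 of that transcript, chr7:1610110-1610641. The canonical start is paired with PSMG3-AS1, a noncoding RNA read in the opposite direction whose nearest TSS is 41 bp from it. The peak does not reach that canonical start. The score does not say which of these transcripts is concerned.

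PSMD9 (ENSG00000110801.14, chr12:122326638-122356203, plus strand), which escorts an ATPase of the 19S base, had its peak directly upstream of the gene. It covered chr12:122326187-122326663 with a score of 108.16, rank 2302, above 59.5% of peaks and 54.5% of those within 2 kb of a protein-coding TSS. The centre was 271 bp upstream of the canonical start and 213 bp upstream of the first annotated one. A divergent noncoding RNA, ENSG00000287493, has a TSS 124 bp from the centre and is thus the nearest annotated gene of any type, while PSMD9 is the nearest protein-coding gene. At POMP, PSMG3 and PAAF1 the chaperone gene itself was the nearest gene of any type.

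PAAF1 (ENSG00000175575.13, chr11:73587744-73642159, plus strand), a WD-repeat protein that binds ATPase subunits, had a peak within the gene. It lay on chr11:73591433-73592063, 631 bp wide, with a score of 97.09 and rank 2637, above 53.6% of peaks. The centre was in intron 2 of the canonical transcript and 1926 bp downstream of the nearest alternative TSS. COA4, whose TSS is 98 bp from the canonical start of PAAF1 on the opposite strand, is the divergent partner here. The canonical start that PAAF1 shares with COA4 was therefore not covered by a peak, in contrast to the starts of POMP and PSMD9, whose peaks reached them or lay directly before them.

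The ARE consensus was found in 3 of the 4 peaks, beside 87.4% of all peaks without undetermined bases, and the longer form in 1 of the 4, beside 61.3%. All 4 lay within 2 kb of a protein-coding TSS. Of the 1122 peaks so placed, 43.2% held the longer form and 14.8% held no consensus. Flanks as long as each peak, 2 kb away on either side, held a consensus in 3 of 4 cases at lower coordinates and in 2 of 4 at higher coordinates, beside 3 of 4 for the peaks themselves. The longer form was at PSMD9, where TGAGTCAGC lay at 122326469 to 122326477, 223 bp upstream of the canonical start and 48 bp from the peak centre. The PSMD9 peak held the most consensus sites of the 4, and its flanks held none. The site at 122326594 to 122326602, TGACCCAGC, differs from the longer form by T5C, with positions counted from 1 at the T of TGA, and the site on the opposite strand, at 122326547 to 122326555, by T5C and A7G.

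The sites at PSMG3 and PAAF1 each differ from the longer form by 1 base, T5A at PSMG3 and C6G at PAAF1. They lay 55 and 34 bp from the centres of their peaks. The PSMG3 site is in the 5′ untranslated region of the alternative transcript, and the PAAF1 site is in intron 2. Peaks whose closest form is 1 base off made up 13.4% of all peaks and had a median score of 86.09, against 103.43 for peaks with the longer form. Of the 762 peaks of this class, 40.2% scored above the PAAF1 peak and 81.0% above the PSMG3 peak. Among the 232 within 2 kb of a protein-coding TSS, with a median of 111.28, these shares were 54.7% and 84.1%. For PSMD9, 47.9% of the 3478 peaks with the longer form scored higher. Of the 485 such peaks within 2 kb of a protein-coding TSS, 53.4% did. The scores of all 3 chaperone peaks lay between the 5th and the 95th percentile of their classes, that of PSMG3 below the lower quartile of 62.77.

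POMP combined the highest score with the absence of the consensus. None of the 813 bases of its peak began a match on either strand. No stretch differed from the longer form at fewer than 2 bases, and 4 stretches, all in intron 1, differed at 2. The stretch shown, TGACTCGAC at 29233468 to 29233476 on the minus strand, 39 bp from the peak centre, differs by A7G and G8A and was picked from the 4 because its first 6 bases are those of the longer form. Since G8A changes a base that the consensus fixes, it is no ARE by this definition. Such near matches are usual, as 67.1% of the 715 peaks without a consensus held a stretch that differs from the longer form at 1 base and a further 27.8% one that differs at 2. Peaks without a consensus had a median score of 71.76, and only 23 of the 715 (3.22%) scored above POMP. Among those within 2 kb of a protein-coding TSS, 7 of 166 did. The nearest consensus site outside the peak was TGAGGTAGC, 323 bp upstream of the canonical start, and 64.1% of the bases of the peak were G or C, against a median of 45.3% over all peaks and 54.6% over those near a protein-coding TSS.

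**Figure D2:**
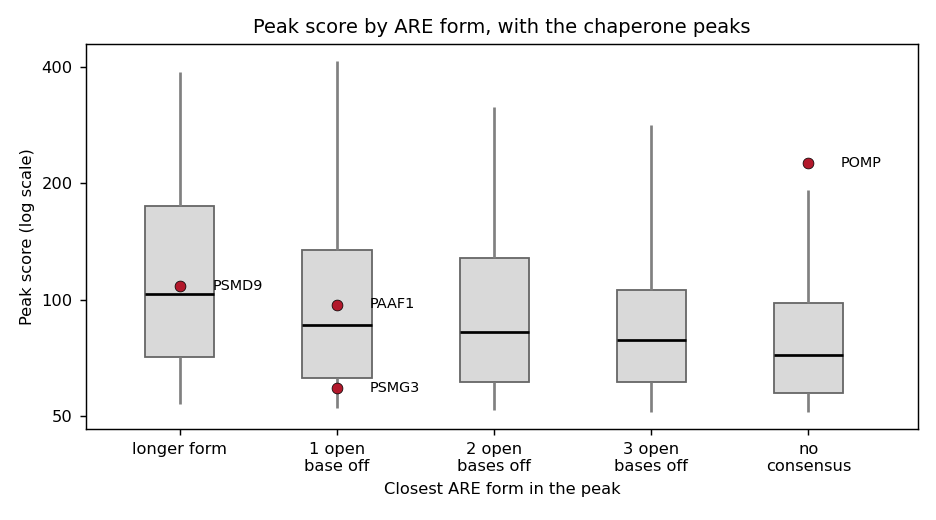
Peak score (log scale) by the closest ARE form in the peak, over the 5673 peaks without undetermined bases. Boxes span the middle quartiles with the median as a line, thin lines run from the 5th to the 95th percentile, and red points are the 4 chaperone peaks. PSMD9, PAAF1 and PSMG3 lie within the range of their classes, and POMP lies above the 95th percentile of the peaks without a consensus.

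No peak was given to PSMG1 (ENSG00000183527.12, chr21:40546695-40555414, minus strand), PSMG2 (ENSG00000128789.22, chr18:12658042-12728944, plus strand) or PSMG4 (ENSG00000180822.12, chr6:3231637-3303607, plus strand) among the chaperones of the alpha ring. Of the chaperones of the base, PSMD5 (ENSG00000095261.14, chr9:123577774-123605229, minus strand) and PSMD10 (ENSG00000101843.19, chrX:107327437-107334779, minus strand) had none. For PSMG4 and PSMG1 the nearest peaks lay just beyond the limit of 20 kb. The PSMG4 peak, chr6:3209396-3209834 with a score of 75.42, was 22022 bp upstream of the outermost start of the gene, and its nearest protein-coding TSS was that of TUBB2B. The PSMG1 peak, chr21:40525215-40525697 with a score of 83.21, was 25.3 kb from the nearest PSMG1 TSS, beyond the 3′ end of the gene, and PSMG1 was still the nearest protein-coding gene. It held TGACTCAGC 43 bp from its centre, the longer form that the PSMG3, PAAF1 and POMP peaks lacked. The nearest peaks to PSMG2, PSMD5 and PSMD10 were 89.2 kb, 140.0 kb and 1.38 Mb away, with scores of 53.73, 86.95 and 64.17. Of all protein-coding genes, 96.8% had a peak as near as that of PSMD10 or nearer. The X chromosome, on which PSMD10 lies, held 56 peaks.

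The distances fell into separate ranges. The 4 genes with a peak were 104 to 1926 bp from its centre, and the next gene was PSMG4 at 22022 bp, so that any window between these values gives the same 4 genes. Over all protein-coding genes the median distance was 105229 bp, against 22022 bp for the 9 chaperone genes. The latter is the distance of PSMG4, from its outermost start. Beyond 20 kb, further peaks were listed near genes that already had one, at 37492 and 48155 bp from POMP, 35969 bp from PSMG3 and 35745 bp from PSMD9. Each of them was closer to the TSS of another protein-coding gene, SLC46A3 for both peaks near POMP, MAFK, which codes for a small MAF protein, near PSMG3 and CFAP251 near PSMD9. The peak 48155 bp from POMP had a score of 123.23 and lay 146 bp from the TSS of SLC46A3.

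**Figure D3:**
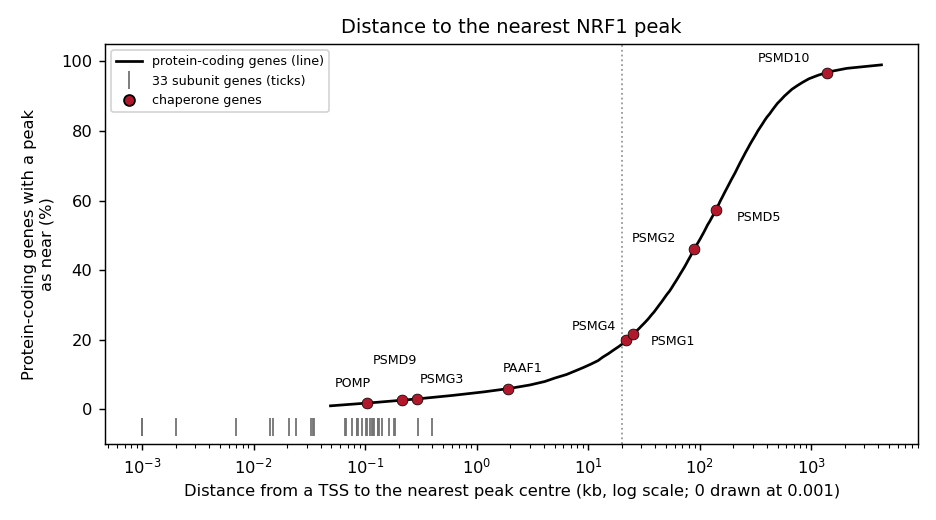
Share of protein-coding genes with a peak at least as near (y axis, percent) against the distance from a TSS to the nearest peak centre (x axis, kb, log scale). Red points are the 9 chaperone genes on this curve, grey ticks the 33 subunit genes, and the dotted line the limit of 20 kb. The chaperone genes spread from 104 bp to 1.38 Mb, while the subunit genes lie within 402 bp.

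The genes without a peak did not lack the letters of the consensus. Within 2 kb of the canonical TSS all 9 chaperone genes held at least 1 match, as did 96.8% of 19854 promoters of protein-coding genes. The number ran from 1 at PSMD10 to 9 at PSMG1, with a median of 4 against 3 over all promoters. The longer form was present within 2 kb at PSMD9 alone, 1 of 9 genes beside 7.30% of promoters. Of the 5 genes without a peak, PSMG1, PSMG4 and PSMD10 held a site 1 base off the longer form, and in PSMG2 and PSMD5 the closest differed at 2 bases. The PSMD10 site, TGAGTCGGC at 107335133 to 107335141, lay 365 bp upstream of the canonical start and differs by A7G. It lies on the side of ATG4A, an autophagy protease gene whose divergent TSS is 126 bp from that of PSMD10. The PSMG1 sites included TGAGGGAGC, 8 bp upstream of the canonical start, and TGAGTGAGC in intron 1, 965 bp downstream. A match is a description of the letters alone, and no peak was listed over any of these sites.

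Shared promoters were common among the chaperone genes, whether or not they had a peak. At 7 of the 9, all but PSMG1 and PSMG4, a TSS on the opposite strand was annotated within 1 kb of the canonical start, beside 29.3% of protein-coding genes. The partners were protein-coding at PSMG2 (CEP76, 265 bp), PSMD10 (ATG4A) and PAAF1 (COA4). At PSMD5 the partner was the pseudogene CUTALP, 74 bp away, and at POMP, PSMG3 and PSMD9 it was a noncoding RNA. No peak lay over the shared start at PSMG2, PSMD10 or PAAF1, and none did at PSMD5 or PSMG3, whose partners are not protein-coding. The PSMD9 peak ended at 122326663, before the canonical start at 122326696. Of the canonical starts of these 7 genes, only that of POMP was covered. No share over all protein-coding genes was computed for peaks that cover the canonical start. The 3.72% given above for a limit of 2 kb is a wider measure, which PSMG3 meets. The absence was seen with both kinds of partner and does not set the pairs with a protein-coding partner apart.

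The subunits that the chaperones assemble were examined in the same way. All 33 genes of the constitutive 20S core and 19S particle had a peak within 402 bp of a TSS. Of the chaperone genes, POMP, PSMG3 and PSMD9 had one as near, and 4% of protein-coding genes had one within 611 bp. Within 20 kb the counts were 33 of 33 subunit genes and 4 of 9 chaperone genes, beside 18.7% of protein-coding genes. The median of the highest scores was 311.38 over the 33 subunits and 102.62 over the 4 chaperones, beside 102.02 over the 3766 protein-coding genes with a peak within 20 kb. Among the 37 proteasome genes with a peak, POMP ranked 24, PSMD9 34, PAAF1 35 and PSMG3 37, and 23 subunits scored above POMP. The alpha subunits, whose ring PSMG1 to PSMG4 guide, ran from 90.61 at PSMA2 to 681.29 at PSMA1. The beta subunits, which POMP escorts, ran from 223.26 at PSMB3 to 614.43 at PSMB7, and the ATPases, which the base chaperones bind, from 144.19 at PSMC4 to 412.41 at PSMC3. In the lid the scores ran from 119.94 at PSMD13 to 1128.13 at PSMD14, and in the scaffold and receptor subunits from 380.09 at PSMD4 to 925.88 at PSMD1. PSMA2 was the 1 subunit with a score below those of PSMD9 and PAAF1. As the chaperone genes were grouped with results of the list known, no test of this difference was made.

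**Figure D4:**
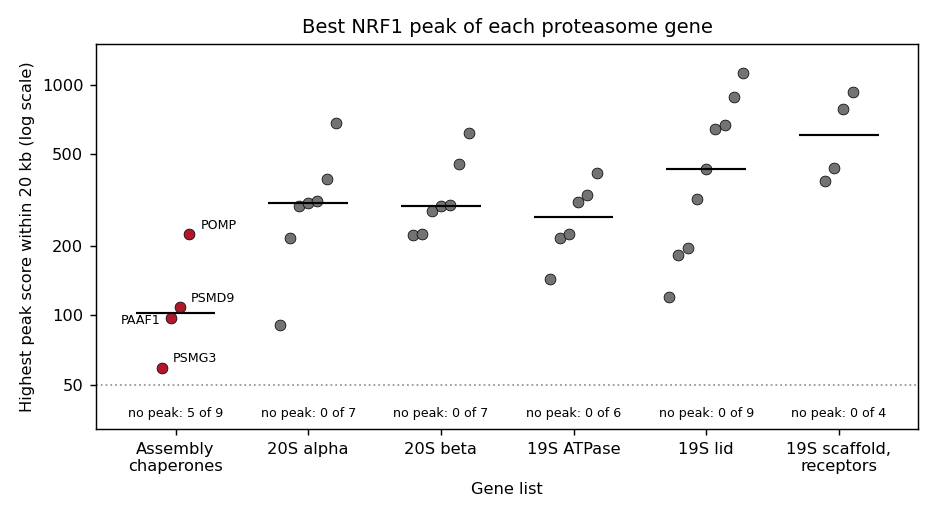
Highest score of a peak within 20 kb (y axis, log scale) for each chaperone gene (red) and each subunit gene (grey), by gene list. Horizontal lines are medians over genes with a peak, the dotted line is the lowest score in the list, and the number of genes without a peak stands under each list. POMP lies within the range of the subunits, and PSMG3 lies below all of them.

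POMP was not alone in lacking the consensus under a peak. The best peaks of 5 subunit genes, PSMB4, PSMB7, PSMC1, PSMD4 and PSMD8, held none either, so that 84.8% of the 33 held an ARE. The longer form was in 7 of the 33 (21.2%), against 43.2% of all peaks within 2 kb of a protein-coding TSS. Like PSMD9, the subunits PSMA3, PSMA5, PSMD1, PSMD2, PSMD7, PSMD11 and PSMD12 belonged to this group, with scores from 305.06 at PSMA3 to 925.88 at PSMD1, all above that of PSMD9. Of the 5 subunits without a consensus, PSMC1 (224.52) and PSMB4 (223.84) had scores next to that of POMP, and PSMB7 had the highest. The subunits named for lacking the consensus or holding the longer form were picked after their values were seen.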

How the data were processed

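NRF1 was measured by ChIP-seq in 1 library of HCT116 cells treated with MG132. Per the submitters' notes, single-end reads were aligned by Bowtie2 2.2.6 on hg19 and peaks were called by MACS 1.4.2. The authors deposited the position of each peak and its MACS score, the negative log10 of a p-value multiplied by 10. MACS settings, the control library and the handling of duplicates and multiply mapped reads are not given in the sources used here. The depth is unknown, so the scores served only to rank peaks within the list, and intervals cover counting error only.

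Peak centres were set against the TSSs of all transcripts in GENCODE v44 lifted to GRCh37, which has the coordinates of hg19. The study's annotation of peaks, held here in part, was looked up for the names of the genes alone and added 0 peaks. AREs were searched on both strands in 5673 peaks, since 5 lay on unlocalised or unplaced contigs and 5 held undetermined bases, and in windows of 2 kb on both sides of canonical TSSs without undetermined bases. A site's distance is that of its middle base. The search and the distances were tested on simulated data. Members, gene lists and alternatives were chosen with earlier results of these data known, so no test was made. Named were all members, their neighbouring and divergent genes, and the subunits with the highest and lowest scores of each list. The search for the closest 9 bases at POMP, and the choice of 1 of 4 such stretches to print, were made after the data had been seen. The sequence at 1 of the sites is not reported here. Python 3.11.15, numpy 2.4.6, scipy 1.17.1, pysam 0.24.0 and matplotlib 3.10.9 were used.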

Additional observations from a re-analysis of the deposited data

How the results depend on the processing

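Of 28 recomputed counts, 23 were within 1.5 times of the reported ones. The 23 include the counts for the flanks on either side of the peaks, where 3 and 2 held an ARE. Flanks are a comparison and not another way of processing, so their closeness to the count for the peaks is no sign of stability. Requiring a score of at least 100 left 2 chaperone genes, 2 peaks and 1 peak with an ARE, that of PSMD9, because PSMG3 and PAAF1 score lower. A window of 50 kb gave 11 peaks at 6 genes, the added genes being PSMG1 and PSMG4. The longer ARE form was found in 1 peak in place of 3. Windows of 2 to 10 kb, distances from the peak edge, other choices of TSS and merged peaks gave the same 4 genes, and assignment to the nearest gene of any type removed PSMD9 and left 3. No paired analysis was possible because the result comes from 1 library and no test. Absence from the list limits only what passed the authors' threshold at an unknown depth, and each peak is known from 1 library.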
